A study of Mus musculus with 6 samples.

Results

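The genes of extracellular Wnt signaling were compared between penile tumors of SA mice and normal penises of WT mice. They are 50 of the 24063 gene symbols in the count tables and were chosen by symbol: 19 Wnt ligands, 15 receptors and co-receptors (Fzd1 to Fzd10, Lrp5, Lrp6, Ror1, Ror2 and Ryk), 7 genes of the R-spondin axis (Rspo1 to Rspo4 and Lgr4 to Lgr6), the ligand secretion genes Porcn and Wls, and 7 secreted inhibitors (Sfrp1, Sfrp2, Sfrp4, Sfrp5, Frzb, Dkk1 and Dkk3). Each gene is represented by its transcript with the highest mean count, and 46 of the 50 had enough counts to be tested. Total RNA was sequenced from 3 spontaneous penile tumors of SA mice, whose genotype is PB-Cre+ Smad4L/L ApcL/L, and from the penile epithelium of 3 WT C57BL/6 samples, all at 5 months of age and with no carcinogen given. PB-Cre places the Cre recombinase under the androgen-responsive probasin promoter, so that the floxed Smad4 and Apc alleles recombine in epithelial cells that use this promoter and other cells of the tissue keep both genes. The strain of the SA mice is not given in the labels, and the effects of genotype, tumor formation and strain cannot be told apart. The labels do not say that each WT sample came from a separate mouse, and p-values then measure only the spread between these samples.

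Wnt proteins are lipid-modified signals. Porcn attaches the lipid and Wls carries the protein to the cell surface, where it binds a Frizzled receptor together with Lrp5 or Lrp6 and keeps β-catenin from being degraded by the complex that contains Apc. Other ligands, such as Wnt5a, act through Ror receptors without β-catenin. R-spondins bind Lgr receptors and keep Frizzled proteins on the surface by blocking the ubiquitin ligases Rnf43 and Znrf3, while Sfrp proteins and Frzb bind Wnt ligands outside the cell. In skin and its appendages these signals are known for the control of hair follicle, nail and stem cell programs.

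The gene rows held 23828283 to 32871142 counts in 5 of the libraries and 110509147 in the third SA tumor, and a level of 3 counts, taken as the smallest that can be seen, was 0.0244 to 0.137 CPM (counts per 1e+06, normalized by TMM; counting error alone is covered). Replicates varied more among SA tumors than among WT penises, with biological coefficients of variation of 0.222 and 0.130. The deleted genes were measured first. Smad4 was at 36.6, 36.0 and 46.1 CPM in the SA tumors and 61.2, 69.7 and 72.5 CPM in the WT penises, with a log2 fold change of -0.77 (SE 0.128, adjusted p = 0.00114), where SE is the standard error. Apc was at 253, 194 and 197 CPM in the SA tumors and 62.5, 85.3 and 91.1 CPM in the WT penises and its log2 fold change was 1.43 (SE 0.168, adjusted p = 0.000185). Counts over whole transcripts include the exons that a Cre deletion leaves, so that they do not check the deletion. Keratinocyte markers were present in all libraries, where Krt5 averaged 3284 ± 269 CPM in the tumors and 7614 ± 182 CPM in the WT penises (SD, n = 3).

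An adjusted p-value under 0.01 (edgeR's quasi-likelihood test with Benjamini-Hochberg adjustment over 16336 genes) was reached by 29 of the 46 Wnt signaling genes tested. Of these, 19 rose in SA tumors, which is 41.3% of those tested beside 20.1% of all genes tested. The other 10 fell, 21.7% beside 17.5%. The shares of all genes tested, 20.1% that rose and 17.5% that fell, are also the background of the counts by role below. When the change also had to be 4-fold or more (2 on the log2 scale), 10 genes rose (21.7% beside 9.41% of all genes) and 5 fell (10.9% beside 3.59%). The 10 that rose past both thresholds were the ligands Wnt5a, Wnt6, Wnt7a, Wnt9b, Wnt10b and Wnt16, the receptor Ror1, the R-spondin Rspo4, its receptor family member Lgr6 and the inhibitor Frzb. The 5 that fell were Wnt2, Wnt3, Rspo2, Sfrp2 and Sfrp4. The median log2 fold change was 0.28 over the 46 genes and 0.03 over all genes. With groups of 3, an exact permutation test (two-sided) on any single gene has 0.10 as its smallest possible p-value.

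**Figure D1:**
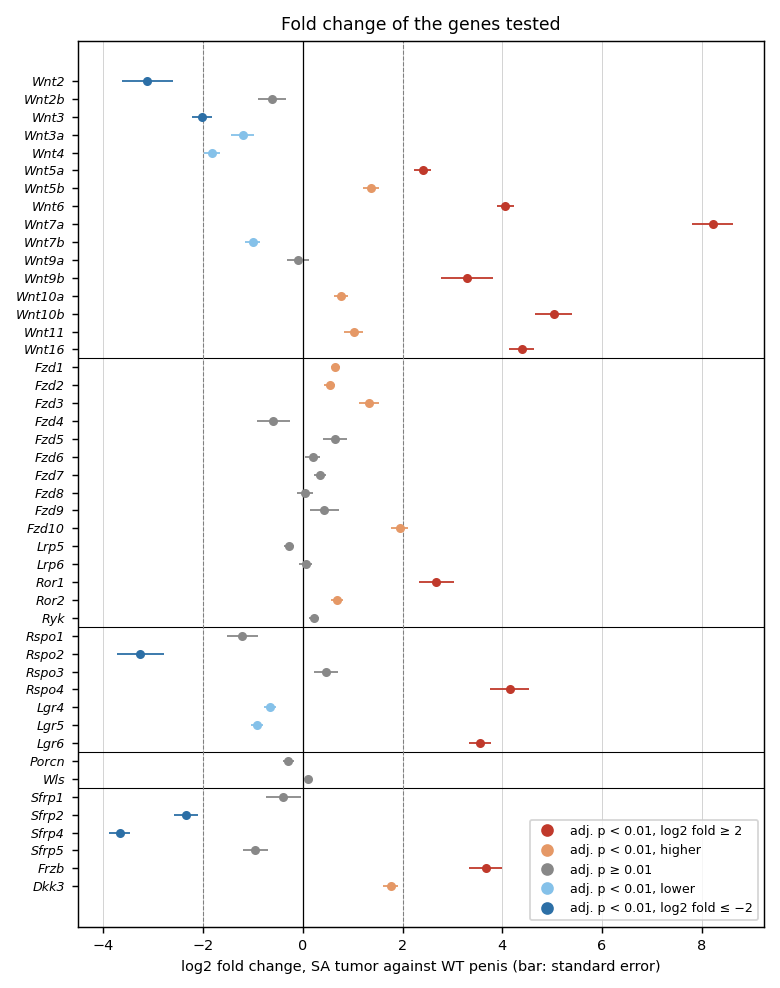
Log2 fold change between SA tumors and WT penises (positive where higher in tumors) for the 46 genes tested, with edgeR's standard error as bars and dashed lines at 2 and -2. Wnt7a lies farthest to the right at 8.22 and Sfrp4 farthest to the left at -3.68, and ligands appear on both sides.

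Among the 16 Wnt ligands tested, 9 rose, 5 fell and Wnt2b and Wnt9a did not pass the test. Wnt7a (mm10 chromosome 6, 91363981 to 91411353), a ligand known for limb and reproductive tract patterning, had the largest change. It was at 27.8, 26.7 and 20.9 CPM in the SA tumors and 0.181, 0.0668 and 0 CPM in the WT penises. The last of these values comes from 0 counts, which allows up to 0.137 CPM, and the WT libraries together held 6 Wnt7a counts against 748 or more in each SA tumor. Its log2 fold change was 8.22 (SE 0.412, adjusted p = 2.80e-06). The size depends on those few WT counts and was 9.25 without the first WT penis and 7.70 without the third.

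Wnt10b (chromosome 15, 98770712 to 98778206), a β-catenin pathway ligand known for hair follicle formation, was at 90.4, 62.4 and 69.2 CPM in the SA tumors and 1.31, 1.77 and 3.78 CPM in the WT penises. The log2 fold change was 5.03 (SE 0.368, adjusted p = 3.28e-05), and the lowest SA tumor was far above the highest WT penis. Wnt16 (chromosome 6, 22288178 to 22298522), known for its role in bone, was at 101, 63.6 and 66.8 CPM in the SA tumors and 4.61, 3.67 and 2.73 CPM in the WT penises. It rose by a log2 fold change of 4.39 (SE 0.255, adjusted p = 5.43e-06). Wnt6 (chromosome 1, 74754342 to 74785322), expressed in many epithelia, was at 106, 82.0 and 72.0 CPM in the SA tumors and 5.47, 4.87 and 5.24 CPM in the WT penises. The log2 fold change was 4.06 (SE 0.172, adjusted p = 1.96e-06). For Wnt16 and Wnt6 alike the SA and WT values were well apart.

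Wnt5a (chromosome 14, 28504543 to 28527448), the main ligand of the β-catenin-independent branch and known for outgrowth of the limb and genital tubercle, was at 165, 112 and 158 CPM in the SA tumors and 23.6, 28.3 and 30.2 CPM in the WT penises. Per kb of transcript its WT level was the highest of the 6, and its log2 fold change was 2.41 (SE 0.171, adjusted p = 1.33e-05). Wnt9b (chromosome 11, 103727362 to 103775272), known for inducing kidney tubules, had the lowest SA level per kb of the 6 and was at 5.28, 2.91 and 8.20 CPM in the SA tumors and 0.949, 0.467 and 0.273 CPM in the WT penises. Even the lowest tumor, the second, was above the WT range, and the log2 fold change was 3.30 (SE 0.519, adjusted p = 0.000919). Smaller increases, below the fold threshold, were seen for Wnt5b (1.37, adjusted p = 0.000212), Wnt11 (1.02, adjusted p = 0.00215) and Wnt10a (0.77, adjusted p = 0.00238). The calls of Wnt11 and Wnt10a were lost without the second SA tumor (adjusted p = 0.0105 and 0.0112), without the first WT penis (0.0118 and 0.0134) and without the second (0.0120 and 0.0126). Wnt10a, a ligand of tooth and skin appendage development, was the ligand next to Wnt4 and Wnt7b in level per kb of the normal tissue and was at 113, 106 and 78.5 CPM in the SA tumors and 55.0, 56.6 and 63.1 CPM in the WT penises.

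The ligands that fell included the most abundant ones of the normal penis. Wnt4 (chromosome 4, 137277635 to 137299501), known for kidney and female reproductive tract development and expressed in epidermis, was at 95.5, 142 and 119.6 CPM in the SA tumors and 479, 393 and 394 CPM in the WT penises. All SA tumors were far below the WT range, and the log2 fold change was -1.83 (SE 0.161, adjusted p = 3.94e-05). Wnt7b (chromosome 15, 85535437 to 85581821), known for lung and kidney development, was at 94.2, 104 and 72.0 CPM in the SA tumors and 167, 167 and 208 CPM in the WT penises, a log2 fold change of -1.01 (SE 0.155, adjusted p = 0.000809). For Wnt3a, a β-catenin pathway ligand of the early embryo, the log2 fold change was -1.21 (adjusted p = 0.00280). This call was lost with library totals (adjusted p = 0.0108), without the second SA tumor (0.0128) and without the first (0.0136) or the second WT penis (0.0131).

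Wnt2 and Wnt3 were the ligands that fell past both thresholds. Wnt2 (chromosome 6, 17985474 to 18032772), a mesenchymal ligand in the developing lung, was at 0.372, 1.26 and 2.14 CPM in the SA tumors and 9.40, 10.4 and 15.8 CPM in the WT penises. Its values were spread widely among the SA tumors, with the first tumor the lowest, but none reached the WT range, and the log2 fold change was -3.13 (SE 0.511, adjusted p = 0.00148). Without the second SA tumor its adjusted p was 0.0106, above the threshold, and without the third its log2 fold change was -3.83. Wnt3 (chromosome 11, 103774175 to 103818021), needed for gastrulation and used in limb ectoderm, was at 2.97, 4.24 and 3.78 CPM in the SA tumors and 12.5, 15.1 and 17.3 CPM in the WT penises. Its log2 fold change of -2.02 (SE 0.198, adjusted p = 6.94e-05) lies close to the fold threshold and was -1.91 without the first SA tumor and -1.93 without the third WT penis.

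Wnt1, Wnt8a and Wnt8b had too few counts to be tested. Wnt8a had 4, 12 and 40 counts in the tumors and 0, 0 and 0 in the WT penises, and without the filter its adjusted p was 0.00389 by edgeR and 0.00288 by DESeq2. Wnt8b had 15, 4 and 23 counts in the tumors and 1, 3 and 1 in the WT penises, and Wnt1 had 1, 1 and 5 counts in the tumors and 0, 0 and 3 in the WT penises. Wnt8a was above 3 counts in every SA tumor. Without the filter, Wnt8b had an adjusted p of 0.0714 by edgeR and 0.114 by DESeq2, and Wnt1 of 0.949 by edgeR, so that no difference was detected for them at this depth.

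**Figure D2:**
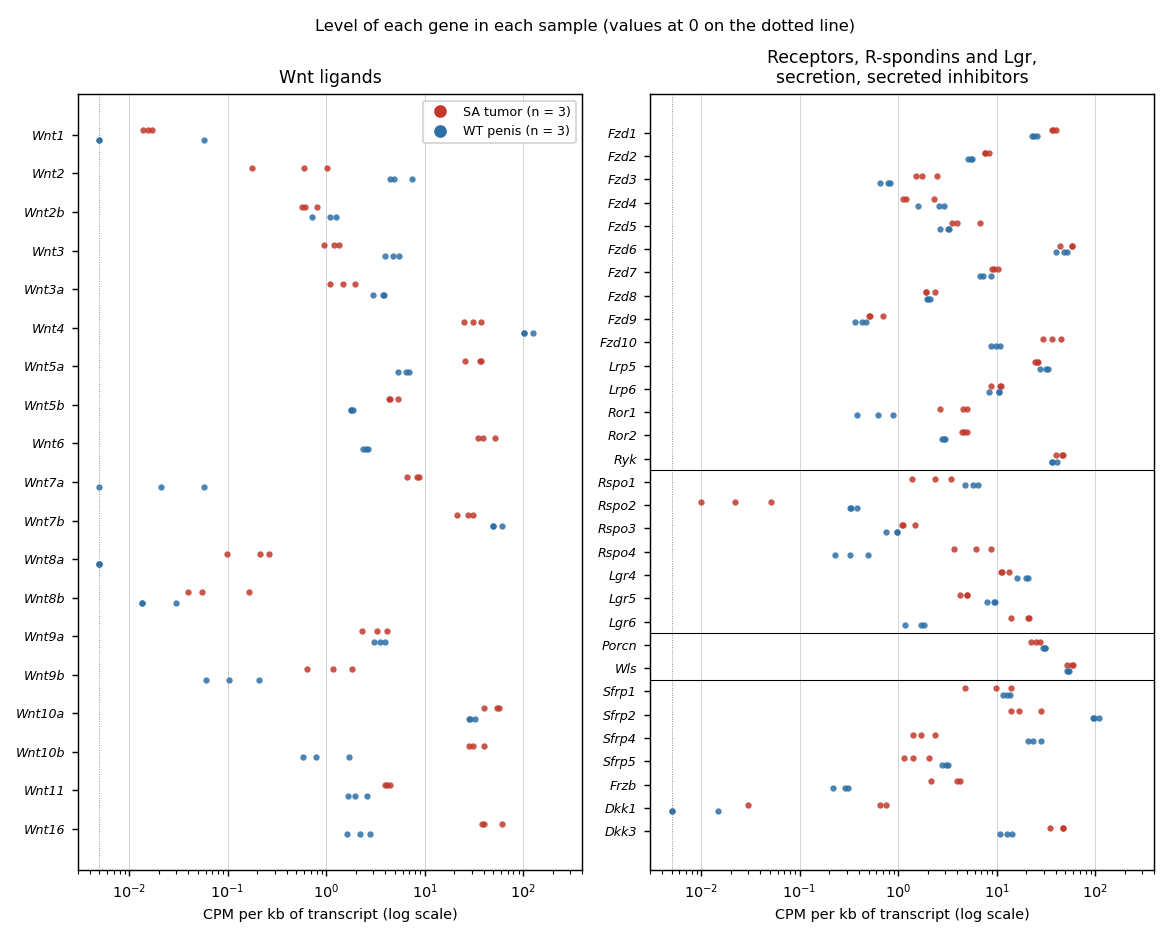
Level of each of the 50 genes in each sample, in TMM-normalized CPM per kb of transcript on a log axis, with SA tumors in red, WT penises in blue (n = 3 each) and values of 0 on the dotted line. The red and blue points of Wnt7a are separated by more than 2 powers of 10 on the axis, while those of Wls and Lrp6 overlap.

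Levels of different ligands were compared per kb of transcript. The 19 ligands summed to 324.5, 280.3 and 261.4 CPM per kb in the SA tumors and 235.3, 215.0 and 234.7 in the WT penises. Every SA sum was higher than every WT sum, with means of 289 ± 32.4 and 228 ± 11.6 (SD, n = 3), a ratio of 1.27. The ratio was 1.54 with library totals as the only scaling, 1.64 from the deposited TPM values and 1.14 from the sum of each gene's transcript rows. Wnt5a, Wnt5b, Wnt7b and Wnt11 have several rows with nearly equal counts, so the sum of rows can count the same reads more than once. In WT penises Wnt4 alone held 48.4% ± 4.66 of the sum and Wnt7b 23.4% ± 2.64 (SD, n = 3), and together they held 71.8% ± 2.17. In SA tumors the same pair held 20.2% ± 3.96.

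The SA sum was spread over more ligands. Wnt10a was first at 17.5% ± 2.03, followed by Wnt16 at 15.9% ± 2.56, Wnt6 at 14.4% ± 1.29, Wnt5a at 11.6% ± 2.35, Wnt10b at 11.5% ± 1.30 and Wnt4 at 10.96% ± 2.90 (SD, n = 3). Neighbours in this order differed by less than the larger of their SDs, except Wnt6 and Wnt5a. The order in WT penises was Wnt4, Wnt7b, Wnt10a at 13.0% ± 0.962 and Wnt5a at 2.76% ± 0.402, with wide gaps between the first 4. The 6 ligands past both thresholds held 5.34% ± 0.331 of the WT sum and 56.5% ± 5.85 of the SA sum, a description only, since the test on the same samples chose them. Wnt7a, in spite of the largest fold change, held 2.74% ± 0.246 of the SA sum.

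**Figure D3:**
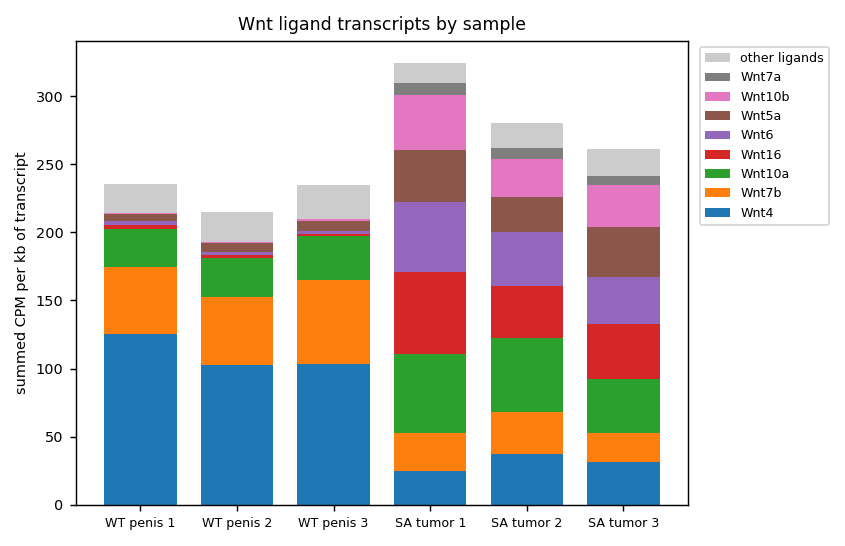
Summed level of the 19 Wnt ligands in each sample, in TMM-normalized CPM per kb, with each bar divided by ligand. Wnt4 and Wnt7b (blue and orange at the base) make up 71.8% of the WT bars on average and 20.2% of the SA bars, and the red, purple, brown and pink segments of Wnt16, Wnt6, Wnt5a and Wnt10b are large only in SA tumors.

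Several Wnt genes are neighbours in the genome, and 4 pairs of the genes described lie within 100 kb of each other. Wnt6 and Wnt10a on chromosome 1 are 6.7 kb apart, and both rose, by log2 fold changes of 4.06 and 0.77. Wnt3a and Wnt9a on chromosome 11, 16.1 kb apart, had log2 fold changes of -1.21 and -0.09, of which the second did not pass (adjusted p = 0.745). Wnt10b and Wnt1 on chromosome 15 are 11.7 kb apart, and Wnt1 stayed near 0 counts while Wnt10b rose by 5.03. Wnt9b and Wnt3 on chromosome 11 are transcribed in opposite directions, with gene ranges that overlap by 1098 bases, and were the pair that moved in opposite directions: 3.30 for Wnt9b and -2.02 for Wnt3. In WT penises Wnt3 was the higher of this pair, at 4.80 ± 0.777 CPM per kb beside 0.125 ± 0.0770 for Wnt9b, and in SA tumors they were at 1.18 ± 0.205 and 1.21 ± 0.585 (SD, n = 3). Reads from the overlap could be assigned to either gene, since the libraries were stranded but the strand setting of the counting is not stated. In all, 21 of the 50 genes overlap another gene of the RefSeq annotation (GRCm38.p6), and of those past both thresholds these are Wnt3, Wnt6, Wnt7a, Wnt9b and Ror1.

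**Figure D4:**
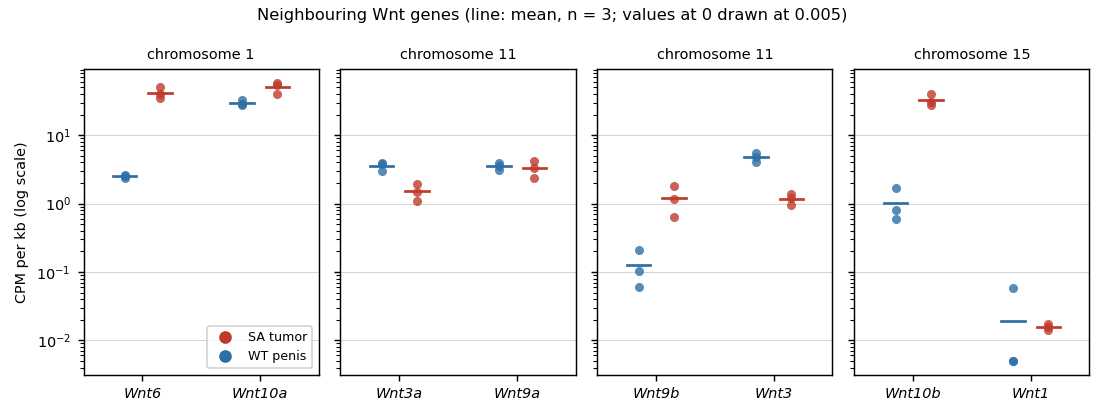
Levels of the 4 pairs of neighbouring Wnt genes, in TMM-normalized CPM per kb on a log axis, with 1 point per sample and lines at the mean (n = 3 per group; values of 0 drawn at 0.005). Wnt9b rises from WT (blue) to SA (red) while Wnt3, its neighbour, falls, and the 2 genes end at about the same level.

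The 250 bases before the RefSeq start of these neighbours are shown because the pair moved in opposite directions from starts that face away from each other, although the annotated range of Wnt9b extends farther upstream, into Wnt3. Both are given 5′ to 3′ on the strand of the gene, from GRCm38.p6 (Wnt9b at chr11:103749822-103750071, minus strand; Wnt3 at chr11:103773925-103774174, plus strand). The letters CTTTGA, the core of the motif that Tcf and Lef factors bind, occur on neither strand of these bases, so that no capitals are used.
Wnt9b: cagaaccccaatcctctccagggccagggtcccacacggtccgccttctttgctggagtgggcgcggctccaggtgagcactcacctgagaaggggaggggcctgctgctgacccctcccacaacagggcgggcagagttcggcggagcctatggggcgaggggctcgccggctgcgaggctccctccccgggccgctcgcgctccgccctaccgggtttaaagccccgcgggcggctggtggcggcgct
Wnt3: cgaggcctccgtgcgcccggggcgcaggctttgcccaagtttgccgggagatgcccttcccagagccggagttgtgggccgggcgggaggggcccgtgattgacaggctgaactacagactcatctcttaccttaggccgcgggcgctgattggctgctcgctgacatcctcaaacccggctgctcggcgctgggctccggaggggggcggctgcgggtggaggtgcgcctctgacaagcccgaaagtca

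Of the 15 receptors and co-receptors, 6 rose and 9 did not pass the test. Ror1 (chromosome 4, 100095791 to 100444806), a receptor of Wnt5a, was the receptor past both thresholds. It was at 17.8, 9.34 and 15.9 CPM in the SA tumors and 1.36, 2.24 and 3.14 CPM in the WT penises, and the lowest tumor was well above the highest WT penis. The log2 fold change was 2.68 (SE 0.345, adjusted p = 0.000318). Its relative Ror2 rose by 0.69 (adjusted p = 0.00149, and 0.0130 without the second WT penis). Ryk, a kinase-like Wnt receptor, was among the most abundant receptors per kb and was at 154, 149 and 129 CPM in the SA tumors and 134, 118 and 120.0 CPM in the WT penises. Its groups overlapped, and its log2 fold change of 0.22 did not pass (adjusted p = 0.110).

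Fzd10 rose by a log2 fold change of 1.94 (SE 0.165, adjusted p = 3.31e-05), just below the fold threshold. It was at 136, 109.9 and 88.8 CPM in the SA tumors and 32.0, 29.2 and 25.9 CPM in the WT penises, with no overlap. Fzd3, which acts in planar polarity, rose by 1.33 (adjusted p = 0.000723), Fzd1 by 0.65 (adjusted p = 0.000592) and Fzd2 by 0.54 (adjusted p = 0.00310). The call of Fzd2 was lost with the replicate number as a block (adjusted p = 0.0127) and without the second (0.0303) or the third WT penis (0.0171). Fzd6, known for the orientation of hairs, had the highest level per kb of any receptor in both groups, 53.6 ± 8.23 CPM per kb in the tumors and 46.8 ± 6.27 in the WT penises (SD, n = 3). Its values of 238, 179.8 and 238 CPM in the SA tumors and 197, 213 and 163 CPM in the WT penises overlapped, and the log2 fold change of 0.19 did not pass (adjusted p = 0.293). The other Frizzled genes had log2 fold changes from -0.59 for Fzd4 to 0.65 for Fzd5 and did not pass. Lrp5 and Lrp6, the co-receptors of the β-catenin branch, had log2 fold changes of -0.28 (adjusted p = 0.0432) and 0.06 (adjusted p = 0.734). The 10 Frizzled genes together were at 171.8, 142.9 and 156.5 CPM per kb in the tumors and 101.7, 109.4 and 95.8 in WT penises, and Fzd10 made up 23.7% ± 4.09 of the sum in the tumors and 9.51% ± 0.880 in the WT penises (SD, n = 3).

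The promoter of Ror1 held the Tcf and Lef letters. CTTTGA was searched on both strands, as CTTTGA or its reverse complement TCAAAG, in the window from 250 bases before to 50 after each RefSeq start. It was found in 6 of 36 promoters of the genes described, 16.7%, beside 16.0% of all 32851 promoters of the same length. Among genes that rose past both thresholds, 2 of 9 promoters held it, those of Ror1 and Frzb, and 0 of 3 among those that fell. The other matches were in promoters of Dkk1, which was not tested, and of Fzd1, Wnt11 and Wnt5b, which rose below the fold threshold. Matches are descriptions of the letters and not binding sites. Both promoters are shown for their 250 bases before the start, with the match in capitals (GRCm38.p6; Ror1 at chr4:100095541-100095790, plus strand; Frzb at chr2:80447397-80447646, minus strand). The match begins 205 bases before the start of Ror1 and 95 bases before that of Frzb.
Ror1: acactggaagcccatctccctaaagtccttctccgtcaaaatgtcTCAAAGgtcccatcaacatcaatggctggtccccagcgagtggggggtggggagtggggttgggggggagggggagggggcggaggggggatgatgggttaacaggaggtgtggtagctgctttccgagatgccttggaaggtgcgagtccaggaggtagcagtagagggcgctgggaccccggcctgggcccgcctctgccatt
Frzb: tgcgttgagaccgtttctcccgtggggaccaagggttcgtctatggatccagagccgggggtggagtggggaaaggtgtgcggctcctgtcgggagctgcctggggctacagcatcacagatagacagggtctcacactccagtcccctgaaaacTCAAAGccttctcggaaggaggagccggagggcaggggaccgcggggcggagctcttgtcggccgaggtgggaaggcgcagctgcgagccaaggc

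In the R-spondin axis, 2 genes rose, 3 fell and 2 did not pass. Rspo4 (chromosome 2, 151842647 to 151874668), the R-spondin required for nail formation, was at 20.6, 8.84 and 14.7 CPM in the SA tumors and 1.18, 0.768 and 0.547 CPM in the WT penises. All tumors were far above the WT penises, most of all the first, and the log2 fold change was 4.15 (SE 0.395, adjusted p = 6.19e-05). Rspo2 (chromosome 15, 43020788 to 43171594), known for limb and hair follicle growth, moved the other way, at 0.0743, 0.0331 and 0.171 CPM in the SA tumors and 1.08, 1.10 and 1.28 CPM in the WT penises. In counts it had 2, 1 and 21 counts in the tumors and 24, 33 and 28 in the WT penises, so that the first and second tumors lay under the level of 3 counts, and the log2 fold change was -3.26 (SE 0.466, adjusted p = 0.000534). Without the third tumor, which held most of the tumor counts, it was -4.33. Rspo1, the most abundant R-spondin of the normal penis, was at 2.56, 4.34 and 6.38 CPM in the SA tumors and 11.9, 8.81 and 10.6 CPM in the WT penises and just missed the threshold, with a log2 fold change of -1.21 (SE 0.309, adjusted p = 0.0108). It passed at the adjusted p in 5 of the 14 alternatives, among them DESeq2 (0.000199) and the fit without the third SA tumor (0.00164). Rspo3, known from blood vessel and gut stem cell biology, had 0.46 (adjusted p = 0.147). Per kb of transcript, Rspo4 made up 61.5% ± 13.9 of the 4 R-spondins in the tumors and 4.74% ± 1.40 in WT penises, and Rspo1 25.4% ± 11.3 and 78.0% ± 3.10 (SD, n = 3). The R-spondin sums themselves overlapped, at 11.2, 7.21 and 11.2 CPM per kb in the tumors and 8.29, 6.43 and 7.16 in WT penises.

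The R-spondin receptors also differed among themselves. Lgr6 (chromosome 1, 134983300 to 135105374), which marks stem cells of the upper hair follicle, was at 76.7, 74.8 and 50.2 CPM in the SA tumors and 4.29, 6.64 and 6.15 CPM in the WT penises. It rose by a log2 fold change of 3.55 (SE 0.227, adjusted p = 8.38e-06), with no tumor near the WT range. Lgr5 (chromosome 10, 115450314 to 115587780), a β-catenin target and a marker of gut and hair follicle stem cells, was at 23.4, 23.5 and 20.0 CPM in the SA tumors and 44.5, 37.5 and 44.8 CPM in the WT penises. It fell by a log2 fold change of -0.93 (SE 0.122, adjusted p = 0.000342). Lgr4, the broadly expressed member, was at 67.2, 55.9 and 57.4 CPM in the SA tumors and 81.9, 99.5 and 104 CPM in the WT penises and fell as well, with a log2 fold change of -0.66 (SE 0.125, adjusted p = 0.00230). Its call was lost with library totals (adjusted p = 0.0364) and without the second SA tumor (0.0110). Lgr6 made up 52.3% ± 4.77 of the 3 receptors per kb in the tumors and 5.32% ± 0.902 in WT penises, Lgr4 34.1% ± 4.21 and 64.0% ± 3.29, and Lgr5 13.6% ± 0.917 and 30.7% ± 4.17 (SD, n = 3). The receptor that led in WT penises was Lgr4, and in SA tumors it was Lgr6.

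Neither ligand secretion gene passed the test. Wls was at 162, 144 and 166 CPM in the SA tumors and 142, 147 and 152 CPM in the WT penises, with overlapping groups and a log2 fold change of 0.10 (adjusted p = 0.402). Porcn was at 42.1, 47.3 and 52.6 CPM in the SA tumors and 58.9, 56.4 and 59.0 CPM in the WT penises. Its log2 fold change of -0.30 did not pass at the threshold used (adjusted p = 0.0456), although no SA value reached the WT range.

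Among the 6 secreted inhibitors tested, 2 rose, 2 fell and 2 did not pass. Sfrp2 (chromosome 3, 83765750 to 83774314), the most abundant inhibitor of the normal penis, was at 34.0, 28.2 and 56.5 CPM in the SA tumors and 219, 195 and 191 CPM in the WT penises. Its log2 fold change was -2.34 (SE 0.249, adjusted p = 0.000160). Sfrp4 (chromosome 13, 19623175 to 19632825) had the largest decrease of all the genes described, at 2.49, 3.01 and 4.17 CPM in the SA tumors and 36.4, 41.3 and 49.2 CPM in the WT penises, a log2 fold change of -3.68 (SE 0.216, adjusted p = 5.34e-06). For both, all tumors were below all WT penises by a wide margin. Sfrp1 had the values 21.0, 43.2 and 61.2 CPM in the SA tumors and 50.2, 56.0 and 59.1 CPM in the WT penises, in which the first and second tumors lay below the WT range and the third above it, and did not pass (-0.39, adjusted p = 0.376). Sfrp5 had a log2 fold change of -0.96 and just missed the threshold (adjusted p = 0.0129), which it passed by DESeq2 (0.00132) and without the third SA tumor (0.00201).

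Frzb and Dkk3 rose. Frzb (chromosome 2, 80411970 to 80447396), also called Sfrp3 and known from cartilage, was at 6.36, 11.4 and 12.4 CPM in the SA tumors and 0.633, 0.835 and 0.911 CPM in the WT penises. Its log2 fold change was 3.66 (SE 0.324, adjusted p = 4.05e-05), and its promoter is the one shown above with TCAAAG. Dkk3 (chromosome 7, 112116019 to 112159482), a divergent member of the Dickkopf family, was at 118, 157 and 157 CPM in the SA tumors and 42.6, 36.3 and 48.6 CPM in the WT penises, a log2 fold change of 1.76 (SE 0.154, adjusted p = 3.74e-05), below the fold threshold. Dkk1, which blocks Lrp5 and Lrp6, had too few counts to be tested. It had 45, 2 and 182 counts in the tumors and 0, 1 and 0 in the WT penises, so that the second tumor was like the WT penises. Without the filter its adjusted p was 0.0124 by edgeR and 0.000154 by DESeq2. The 5 Sfrp and Frzb genes summed to 26.5, 31.0 and 50.9 CPM per kb in the tumors and 144.6, 137.4 and 140.2 in WT penises, so that all tumors were far below the WT range. Over all 7 inhibitors, Dkk3 made up 54.7% ± 6.43 of the level per kb in the tumors and 8.24% ± 1.04 in the WT penises (SD, n = 3).

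Markers of other cell types moved with some of these genes. In bulk tissue, fewer cells of a type and less RNA per cell cannot be told apart. The summed level of 7 smooth muscle markers was 89.1 to 196 CPM in the tumors and 1622 to 2132 in WT penises, and 6 of the 7 fell past both thresholds. The 10 fibroblast markers summed to 1472, 4062 and 5242 CPM in the SA tumors and 6390 to 6706 in WT penises, and 1 of them, Dcn, fell. Pdgfra, Pdgfrb and Fbn1 of the same list had log2 fold changes of 1.09, 0.98 and 0.70, which did not pass (adjusted p = 0.0604, 0.0214 and 0.0848). The first SA tumor had the lowest fibroblast, smooth muscle, endothelial and Schwann cell sums of all 6 samples. Its leukocyte sum was the lowest of the SA tumors. It also had the lowest values of Wnt2, Rspo1, Sfrp1 and Sfrp4 of all 6 samples, while Sfrp2 and Rspo2 were lowest in the second tumor. Without the first SA tumor, the log2 fold changes were -2.75 for Wnt2, -3.13 for Rspo2, -2.25 for Sfrp2 and -3.53 for Sfrp4. All of these were still past both thresholds. The SA tumors kept in this fit had fibroblast sums of 4062 and 5242 CPM, still below the WT range of 6390 to 6706. Their smooth muscle sums were 160 and 196 CPM, beside 1622 to 2132 in WT penises. This fit thus kept the lower marker sums and did not test their part in these decreases. In the same fit, Rspo1 had -0.95 (adjusted p = 0.00927, under the threshold) and Sfrp1 had -0.08 (adjusted p = 0.712). The 7 endothelial markers were at 179 to 303 CPM in the tumors and 345 to 401 in WT penises, with 3 that fell, and the 4 Schwann cell markers at 36.1 to 52.7 and 186 to 223, with 2 that fell past both thresholds. The part of these cells in the lower Wnt2, Rspo2, Sfrp2 and Sfrp4 was not tested. The 10 keratinocyte markers summed to 24480 to 29450 CPM in the tumors and 64530 to 72750 in WT penises, with 5 that fell and Epcam that rose past both thresholds. The part of keratinocytes in the lower Wnt4 and Wnt7b was likewise not tested.

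The 7 leukocyte markers summed to 102, 211 and 309 CPM in the SA tumors and 98.8 to 138 in WT penises. All 7 had positive log2 fold changes, with a median of 1.13, but the 7 did not pass the test. Urothelial markers summed to 5.09 to 7.18 CPM and 1.09 to 1.90, with Upk2 and Upk3a past both thresholds. Skeletal muscle markers were at 6.85 to 8.62 and 11.7 to 17.0 CPM, with Ckm that fell, and the 4 adipocyte markers at 0 to 0.211 CPM in every sample and were not tested.

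**Figure D5:**
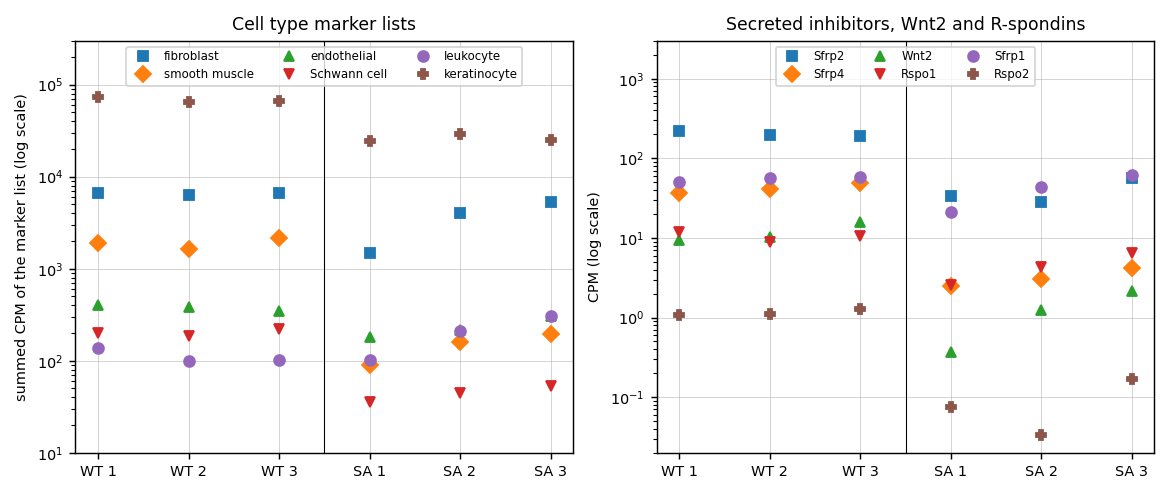
Summed CPM of 6 cell type marker lists (left) and CPM of 6 Wnt signaling genes (right) in each sample, on log axes, with WT penises left and SA tumors right of the line in each panel. Smooth muscle markers and Sfrp4 are lower in all SA tumors than in any WT penis. The first SA tumor is the lowest of the 3 in fibroblast, smooth muscle, endothelial, Schwann cell and leukocyte markers. It is also the lowest of the 3 in Wnt2, Rspo1 and Sfrp1.

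Wnt pathway genes outside this set were taken from a list of 39, of which 38 were tested. Of these, 17 rose and 4 fell, 44.7% and 10.5% beside 20.1% and 17.5% of all genes tested, and 17 did not pass. Past both thresholds 11 rose and 1 fell, 28.9% and 2.63% beside 9.41% and 3.59% of all genes. The list was chosen with earlier results of these data known and includes known β-catenin targets, so that these shares are a description only. The increases included the membrane ligases that R-spondins act on. Rnf43 was at 169, 156 and 117 CPM in the SA tumors and 30.7, 36.8 and 30.9 CPM in the WT penises, a log2 fold change of 2.16 (SE 0.156, adjusted p = 1.44e-05). Znrf3 was at 165, 114 and 111 CPM in the SA tumors and 19.8, 27.4 and 28.8 CPM in the WT penises, a log2 fold change of 2.36 (SE 0.201, adjusted p = 3.52e-05). Both were higher in every tumor than in any WT penis.

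Secreted and membrane inhibitors outside the 7 above were among the largest increases of that list. Wif1, which binds Wnt ligands, was at 819.8, 726 and 680.2 CPM in the SA tumors and 41.8, 31.4 and 33.1 CPM in the WT penises, a log2 fold change of 4.39 (SE 0.155, adjusted p = 1.04e-06). Apcdd1, a membrane inhibitor, was at 1100.0, 905 and 680.2 CPM in the SA tumors and 56.2, 55.9 and 55.6 CPM in the WT penises (adjusted p = 2.36e-06), with every tumor above every WT penis. The antagonist Dkk4 and the deacylase Notum had log2 fold changes of 8.88 and 3.98. Dkk4 had 9, 9 and 14 counts in the WT penises against 5025 or more in each SA tumor, so that the size depends on few WT counts. Of the 10 inhibitors of the list that were tested, 9 rose, including Dkk2 (0.83) and Sostdc1 (1.69), while Kremen1 had -0.15 (adjusted p = 0.310). Thus among secreted Wnt antagonists Sfrp2 and Sfrp4 fell in the same tumors in which Wif1, Dkk4 and Frzb rose.

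Within cells, Axin2 and Nkd1, feedback inhibitors that β-catenin induces, rose by 3.83 and 4.17, and Ctnnb1, which encodes β-catenin, by 0.63 (adjusted p = 0.00536). Of the nuclear factors, Lef1 and Tcf7 rose by 6.66 and 3.27, while the related Tcf7l1 and Tcf7l2 had log2 fold changes of -1.51 (adjusted p = 2.08e-05) and -0.66 (adjusted p = 0.00199) and fell. Sp5, a β-catenin target, rose from 0.904, 0.501 and 0.410 CPM in WT penises to 123, 83.4 and 75.2 in SA tumors, with a log2 fold change of 7.29 (SE 0.317, adjusted p = 2.11e-06). Ascl2, a factor of gut stem cells, was the gene of the list that fell past both thresholds, from 8.18, 5.84 and 5.47 CPM in WT penises to 0.892, 0.894 and 1.54 in SA tumors, a log2 fold change of -2.49 (SE 0.305, adjusted p = 0.000230). Myc and Ccnd1, often named as targets, had log2 fold changes of -0.29 (adjusted p = 0.0282) and 0.45 (adjusted p = 0.0672). The other 8 cytoplasmic genes of the list, Dvl1 to Dvl3, Axin1, Gsk3a, Gsk3b, Csnk1a1 and Nkd2, did not pass, with log2 fold changes from -0.32 for Dvl1 to 0.57 for Nkd2.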

How the data were processed

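Total RNA of fresh tissue was sequenced as stranded paired-end libraries of 76 nt. Per the labels and the methods, TopHat (alignment to mm10) and HTSeq (counting) were the tools of the authors; versions and the strand setting are not given in the sources used here. The authors deposited raw read counts per RefSeq transcript with gene symbols. The FPKM and TPM values were deposited beside them by the authors; FPKM served to recover each transcript's length, and TPM only for an alternative sum of ligands.

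Here each gene was represented by its transcript row with the highest mean count (9 of the 50 genes have more than 1 row, the second at 90.9% or more of the first). Counts were tested in R 4.3.3 with edgeR 4.0.16: genes passing filterByExpr (minimum count 10), TMM scaling, robust quasi-likelihood F-test of SA tumors against WT penises, Benjamini-Hochberg adjustment over 16336 genes, and the thresholds of the study, adjusted p under 0.01, with and without a change of 2 or more on the log2 scale in either direction. SE is the standard error, computed as the absolute log2 fold change over the square root of F. CPM are TMM-normalized, and levels of different genes are compared as CPM per kb. Depth was 23828283 to 110509147 counts. Replicate numbers were not treated as pairs, since nothing in the labels or methods ties same-numbered samples. Promoters and positions came from RefSeq tables of GRCm38.p6, the assembly of mm10; 33 of the 50 genes had a promoter there.

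Values in every sample are given for genes past both thresholds and for those with the highest level per kb in their role; genes of the pathway list are named if past both thresholds, and a few others (Kremen1, Dkk2, Sostdc1, Myc, Ccnd1, Tcf7l1, Tcf7l2, Ctnnb1, the other cytoplasmic genes, and some markers) were chosen after their values were seen. The genes and lists were chosen with earlier results of these data known. On data simulated for this comparison (16191 genes), 57 of 66 genes changed by a log2 fold of 2 and 36 of 70 changed by 1 were recovered at the adjusted p threshold, with 3 unchanged genes called. Far fewer genes were changed there than the 6148 of 16336 that passed in the data. This makes the Benjamini-Hochberg adjustment stricter in the simulation. Alternatives were other scalings (RLE, upper quartile, library totals), DESeq2 1.42.0, other filters, the sum of transcript rows, a replicate block, and fits that omit 1 sample. Leaving samples out for the ligand sum was chosen after seeing the data.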

Additional observations from a re-analysis of the deposited data

How the results depend on the processing

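Over the 14 alternatives, the number of Wnt signaling genes past both thresholds stayed at 10 to 12 higher and 4 to 5 lower in SA tumors (10 to 11 and 4 to 5 when a sample was left out), and 13 of the 15 genes kept this call in each alternative that gave them a value; Rspo2 gave none with the filter at a mean of 50 counts. At the adjusted p alone the numbers were 18 to 22 higher and 8 to 12 lower, and 15 to 19 and 7 to 12 when a sample was left out. The exceptions were Wnt2 and Wnt3, with values without a sample given above; for Wnt3 the log2 fold change was -1.96 with upper-quartile scaling and -1.74 with library totals only. Fzd10 reached the fold threshold with library totals (2.22) and without the third SA tumor (2.08), and Dkk3 with library totals (2.05). Library totals moved the median log2 fold change of all genes from 0.03 to 0.31, and the log2 ratio of the summed ligands from 0.34 to 0.62; it was 0.71 from the deposited TPM, 0.19 from summed transcript rows, and 0.25 to 0.41 when a sample was left out. Fzd7, Ryk and Wls passed at the adjusted p with library totals (0.00431, 0.00272 and 0.00962). The sign changed for 4 genes that did not pass the test: Wnt9a (0.20 with library totals, and -0.323 to 0.0892 when a sample was left out), Fzd8 (-0.0617 to 0.0898 when a sample was left out), Lrp5 (0.0062 with library totals) and Lrp6 (-0.0529 to 0.146 when a sample was left out). The cause was not tested.

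With the replicate number as a block, 10 genes were higher and 5 lower past both thresholds, and 18 and 10 at the adjusted p alone. Fzd2 (adjusted p = 0.0127) and Celsr2 of the pathway list (adjusted p = 0.0122) lost their calls. Residuals of same-numbered samples correlated at -0.13, -0.10 and 0.02 across genes, and not every sample correlated best with its own number. With 3 samples a group, these correlations cannot tell whether same-numbered samples share more than a number.

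With 3 samples a group, genes with few counts, such as Wnt1 and Wnt8b, were compared with little precision. Many changes of 1 on the log2 scale were missed in the simulation. It changed a far smaller share of genes than passed in the data, so its share of missed changes is not that of the data.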
